A study of Mus musculus with 6 samples.

Results

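Radial glia and neural stem cell maintenance genes were followed as 8 genes in cultured mouse neural stem cells. They are Prom1, Msi1, Msi2, Hopx, Fabp7, Ttyh1, Ttyh2 and Ttyh3, taken as every probe set whose platform annotation gives exactly 1 of these symbols. That rule found all 8 of the 8 genes among 23152 measured genes, with 125 of the 233753 probe sets that carry 1 symbol. The group was chosen by the measured difference between 2 viral treatments, so that difference is described here without a test and supports nothing.

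The cells were cortical, taken from mouse embryos at day 14.5 of development, and were grown as 3 lines, numbered 2, 7 and 8. In each line 1 culture was transduced with adenoviral Cre recombinase (Ad-Cre), which per the series design switches on mutant IDH, and 1 with adenoviral GFP (Ad-GFP), the control. The series title names the mutation as IDH1-R132H, a change in a metabolic enzyme that is frequent in gliomas. Infection was at 100 MOI (infectious particles per cell), cells were washed after 24 hours, and total RNA went onto Affymetrix arrays, 1 for each culture and 3 for each virus. All 6 cultures come from the lines that carry the inducible mutation, as far as the design tells, and no array has Cre without the mutation, so effects of Cre and of mutant IDH cannot be told apart. The labels used here name neither the promoter that drives the mutant enzyme nor the time of harvest. Whether the lines stem from separate embryos is not stated either, so the spread between lines may be partly technical.

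Radial glia are the stem cells of the embryonic cortex: they span its wall, divide at the ventricle and give rise to neurons and later to astrocytes. Neural stem cell cultures keep many of their genes. The group holds a membrane protein used to sort stem cells (Prom1, also called CD133), the RNA-binding Musashi proteins (Msi1, Msi2), which control translation of mRNAs in progenitors, and a lipid-binding protein of radial glia (Fabp7, also called BLBP). It also holds Hopx, a small homeodomain protein that does not bind DNA itself and is known from outer radial glia and quiescent stem cells, and the Tweety homologues (Ttyh1, Ttyh2, Ttyh3), membrane proteins named after the Drosophila gene tweety.

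All values are log2 signals, on which a difference of 1 is a 2-fold difference. Each of the 6 arrays had a median of 8.38 to 8.43 and a lower quartile of 6.57 to 6.60 over its probe sets. The line 2 Ad-Cre array stood apart. Its correlation with the other arrays over all probe sets was 0.945 to 0.953. Mki67, a marker of dividing cells, read 10.10 on it and 12.43 to 12.84 on the others, and Gfap, the astrocyte filament, read 11.27 against 7.48 to 8.33. Genes of the stem cell label were bright on all arrays, with Sox2 between 12.97 and 13.53, Nes between 11.58 and 12.35 and Vim between 14.56 and 14.79. Titles and transduction labels give the virus of each array and were followed here. A further description field marks line 8 the other way round from lines 2 and 7, and values with the line 8 labels exchanged are given where they change a result. Precision is limited by there being only 3 arrays for a virus.

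The stretches of promoter below are those of the 3 genes with the largest differences between the viruses, shown because these genes differed in opposite directions. Each window runs from 250 bases before to 50 after a RefSeq transcript start on GRCm38.p6, 5′ to 3′, with CG dinucleotides, the sites of DNA methylation, in capitals. They lie at chr5:44101687-44101986 on the minus strand (Prom1), chr7:4119280-4119579 on the plus strand (Ttyh1) and chr5:77095218-77095517 on the minus strand (Hopx).
Prom1: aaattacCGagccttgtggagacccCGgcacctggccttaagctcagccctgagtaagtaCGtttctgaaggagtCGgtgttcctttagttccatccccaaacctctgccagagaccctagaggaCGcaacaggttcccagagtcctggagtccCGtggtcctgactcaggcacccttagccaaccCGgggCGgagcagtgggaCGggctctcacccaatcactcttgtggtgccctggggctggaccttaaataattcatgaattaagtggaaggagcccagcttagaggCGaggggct
Ttyh1: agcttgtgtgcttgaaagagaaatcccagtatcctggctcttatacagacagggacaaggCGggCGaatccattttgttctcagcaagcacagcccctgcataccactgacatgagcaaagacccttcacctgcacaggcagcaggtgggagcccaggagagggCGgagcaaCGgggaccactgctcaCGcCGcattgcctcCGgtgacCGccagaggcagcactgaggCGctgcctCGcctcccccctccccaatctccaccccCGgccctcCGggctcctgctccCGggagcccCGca
Hopx: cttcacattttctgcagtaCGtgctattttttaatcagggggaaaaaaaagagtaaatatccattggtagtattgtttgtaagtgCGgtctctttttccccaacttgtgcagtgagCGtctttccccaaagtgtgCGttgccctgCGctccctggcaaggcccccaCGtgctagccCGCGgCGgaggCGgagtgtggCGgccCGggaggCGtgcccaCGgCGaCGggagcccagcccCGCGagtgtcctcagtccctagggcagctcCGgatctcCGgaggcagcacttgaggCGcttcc
The Prom1 window holds 10 CG dinucleotides, that of Ttyh1 14 and that of Hopx 21, against a median of 7 over 32851 windows of the same length. A window with at least as many is found for 43.5%, 36.3% and 24.8% of all windows. A second start of Prom1 has 4 CG dinucleotides and a second start of Hopx has 8. Msi2, whose signal hardly differed between the viruses, has the richest windows of the group, where 3 overlapping windows hold 37, 38 and 39, and 4.45% of windows hold at least 39. The Fabp7 window holds 6, that of Ttyh2 15 and that of Ttyh3 29. The motif TGGGAA, a core of the binding site of the Notch effector RBPJ, was searched on both strands. It occurs once in the windows of Fabp7 and of the first Prom1 start and in no other of the 11 windows, while 25.6% of all windows hold it. Such a match describes the letters only, and methylation was not analysed here. Windows were matched for 7 of the 8 genes, and Msi1 had no entry.

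With Ad-Cre, 5 of the 8 genes read lower in all 3 lines (Prom1, Ttyh1, Msi1, Ttyh2 and Fabp7), Hopx read higher in all 3, and Msi2 and Ttyh3 differed little. The largest mean differences were those of Prom1, 2.48-fold lower, Ttyh1, 2.26-fold lower, and Hopx, 1.63-fold higher. Over all genes, 16.2% were lower in every line and 22.1% higher in every line. The median difference of the 8 genes was -0.23 and that of all genes 0.03. The groups did not overlap for 4 genes that were lower and for Hopx, which was higher. Over all genes this held for 8.89% as lower and for 12% as higher. Since this contrast chose the group, these counts are set side by side only. They follow the titles and transduction labels. With the line 8 labels exchanged, Prom1, Ttyh1, Msi1, Ttyh2, Fabp7 and Hopx each had mixed directions. Msi2 was then higher and Ttyh3 lower in all 3 lines, and the groups overlapped for all 8 genes.

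**Figure D1:**
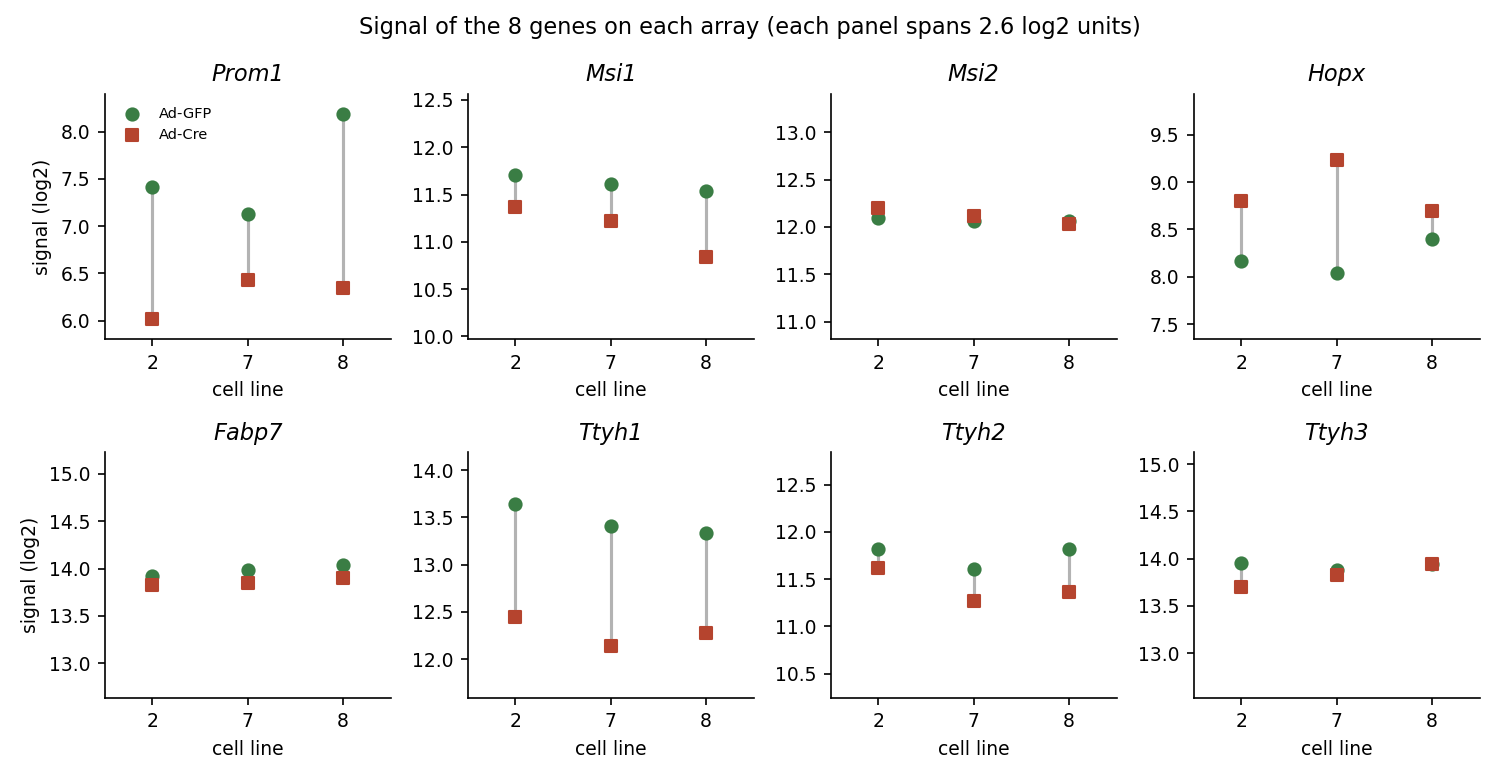
Log2 signal of each of the 8 genes (vertical axis) in cell lines 2, 7 and 8 (horizontal axis), with Ad-GFP as green circles and Ad-Cre as red squares, 1 array each, joined within a line. Panels span the same height, and Ad-Cre lies below Ad-GFP for Prom1 and Ttyh1 and above it for Hopx in every line, and Msi2 and Ttyh3 points nearly coincide.

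Across all 23152 genes, limma with the line as a block called 0% at a Benjamini-Hochberg adjusted p of 0.05, and therefore none of the 8. At an unadjusted p of 0.05, 2923 genes (12.6%) were past it, 5.58% lower and 7.04% higher. That count of 0 became 1211 in the same test without line 2.

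Prom1 encodes prominin-1, a protein of membrane protrusions. It read 7.42, 7.12 and 8.19 with Ad-GFP in lines 2, 7 and 8, and 6.02, 6.43 and 6.35 with Ad-Cre. Every Ad-Cre array was below every Ad-GFP array, and the Ad-Cre value of line 2 lay under the lower quartile of gene values, which was 6.30 to 6.38 over the arrays. The within-line differences were -1.40, -0.69 and -1.84, with a mean of -1.31 ± 0.58 (SD over lines, n = 3). The gap was widest in line 8, where the Ad-GFP culture had the highest Prom1 signal of all 6.

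That mean covers probe sets that behaved very differently. Of the 27 Prom1 probe sets, 15 were lower in all 3 lines, 0 were higher in all 3 and 12 had mixed directions. For comparison, 16.4% of all probe sets with 1 symbol were lower in every line and 17.9% higher. The probe set 17447850 read 9.12, 8.08 and 10.19 with Ad-GFP and 5.06, 4.07 and 4.39 with Ad-Cre, which are differences of -4.06, -4.01 and -5.79. Probe set 17447863 differed by -4.88, -3.22 and -4.65, 17447862 by -4.26, -3.63 and -4.51, and 17447851 by -4.11, -3.90 and -4.99. These probe sets went from clear signal to between 4.03 and 5.51, below the lower quartile of probe set signals, in each line. At that level background is not separated from signal here, so the sizes of these differences are not exact and may be understated. Together with 17447847 they are the 5 that were lower by more than 1 log2 unit in all 3 lines, as were 0.557% of all probe sets. In contrast, the brightest Prom1 probe set, 17447856, stayed between 10.39 and 11.18 on all arrays, with a mean difference of 0.11. The sources used here do not place the probe sets on the gene, so which exons they read is not known here.

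Hopx was the gene of the group with higher signal under Ad-Cre. It read 8.17, 8.04 and 8.40 with Ad-GFP and 8.80, 9.23 and 8.69 with Ad-Cre in lines 2, 7 and 8. No Ad-Cre array was as low as an Ad-GFP array, though the lines differed in the size of the gap. The differences were 0.63, 1.19 and 0.29, with a mean of 0.71 ± 0.45 (SD, n = 3), and without line 7 the mean was 0.46.

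Of its 7 probe sets, 3 carried most of this. Probe set 17449054 read 8.22, 7.67 and 7.57 with Ad-GFP and 10.13, 9.95 and 9.34 with Ad-Cre, differences of 1.90, 2.28 and 1.77. Probe set 17449055 differed by 1.78, 1.41 and 1.52, and 17449056 by 1.83, 1.26 and 1.17. These 3 were similar in every line, unlike the gene value, and all were higher by more than 1 log2 unit throughout, as were 0.287% of all probe sets. The brightest Hopx probe set, 17449053, was higher by 0.36, 0.20 and 0.29. The remaining 3 had mean signals from 5.17 to 6.88 and either mixed directions or, for 17449058, lower signal in each line. With probe sets under the lower quartile left out, 5 of 7 Hopx probe sets stayed and the gene difference was 1.22. The same step kept 16 of 27 Prom1 probe sets and gave -1.01 for that gene, while Ttyh1 kept all 17 at -1.18, so the order of the 3 genes by size depends on it.

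**Figure D2:**
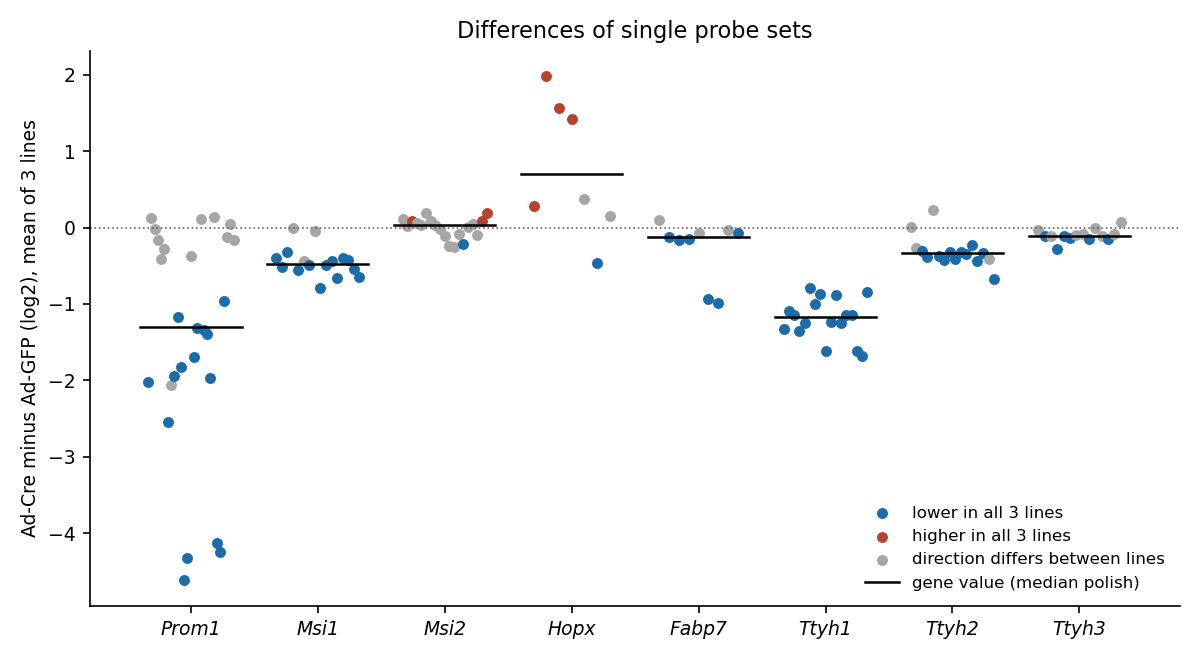
Ad-Cre minus Ad-GFP in log2 units, averaged over the 3 lines, for each of the 125 probe sets of the 8 genes (1 point each, by gene), coloured by direction over lines, with the gene value as a black bar. All Ttyh1 points lie below 0, Prom1 points spread from -4.62 to 0.13, and 3 Hopx points lie above 1.

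Ttyh1, the Tweety homologue a gene of neural stem cells and astrocytes, was lower by more than 1 log2 unit in each line. Its signal was 13.65, 13.40 and 13.33 with Ad-GFP and 12.44, 12.14 and 12.28 with Ad-Cre in lines 2, 7 and 8. The spread inside each group was 0.16 (SD) with Ad-GFP and 0.15 with Ad-Cre. Differences of -1.21, -1.27 and -1.06 gave a mean of -1.18 ± 0.11 (SD, n = 3). All 17 Ttyh1 probe sets were lower in all 3 lines, with mean differences from -1.69 to -0.79, and 11 of them were lower by more than 1 log2 unit in each line. The smallest mean difference, -0.79, belonged to the brightest probe set, whose mean signal was 14.19.

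Its relatives differed less. Ttyh2 read 11.82, 11.61 and 11.82 with Ad-GFP and 11.62, 11.27 and 11.36 with Ad-Cre. The groups just overlapped, at 11.61 and 11.62, although Ad-Cre was lower within every line. The differences were -0.19, -0.34 and -0.46, a mean of -0.33 ± 0.13 (SD, n = 3), and 12 of 16 probe sets were lower in all lines. Ttyh3 read 13.96, 13.89 and 13.94 with Ad-GFP and 13.70, 13.82 and 13.95 with Ad-Cre. Its mean of -0.10 ± 0.14 (SD, n = 3) came from line 2, with differences of -0.26, -0.06 and 0.01, and without line 2 it was -0.03. Of 14 Ttyh3 probe sets, all with mean signals of 10.96 or more, 6 were lower in all lines and 8 were mixed.

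Msi1 and Msi2 encode paralogous RNA-binding proteins that are both present in progenitors. Msi1 read 11.70, 11.62 and 11.54 with Ad-GFP and 11.36, 11.22 and 10.84 with Ad-Cre in lines 2, 7 and 8. The Ad-Cre arrays were all below the Ad-GFP arrays, which themselves were tightly grouped (SD of 0.08). The differences were -0.34, -0.39 and -0.70, a mean of -0.48 ± 0.20 (SD, n = 3), or 1.39-fold. Of 16 Msi1 probe sets, 13 were lower in all lines, and the 3 with mixed directions were dim, with mean signals from 6.33 to 6.94.

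Msi2 read 12.09, 12.07 and 12.07 with Ad-GFP and 12.20, 12.11 and 12.03 with Ad-Cre. The groups overlapped, and the differences of 0.10, 0.04 and -0.04 had no common direction (mean 0.04 ± 0.07, SD, n = 3). Of its 19 probe sets 15 were mixed, 3 higher in all lines and 1 lower. Whether Msi1 and Msi2 differ from each other in this contrast was not tested, since the contrast chose them.

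Fabp7 was bright on every array. It read 13.93, 13.98 and 14.04 with Ad-GFP and 13.83, 13.85 and 13.90 with Ad-Cre in lines 2, 7 and 8. Differences were small but alike, at -0.10, -0.13 and -0.14, a mean of -0.12 ± 0.02 (SD, n = 3), and the groups did not overlap. The 9 probe sets fell into different ranges of signal. The 6 brightest, with mean signals from 13.91 to 14.83, had mean differences between -0.16 and -0.03. Probe sets 17233390 and 17233391, with mean signals of 11.18 and 12.06, differed by -1.48, -0.64 and -0.69 and by -1.48, -0.89 and -0.60. The dimmest, 17233385, had a mean signal of 10.95 and differences of 0.30, -0.07 and 0.08. The plain mean of its probe sets gave -0.27 for the gene. Whether the brightest probe sets understate differences was not tested, so the small gene value is not exact.

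**Figure D3:**
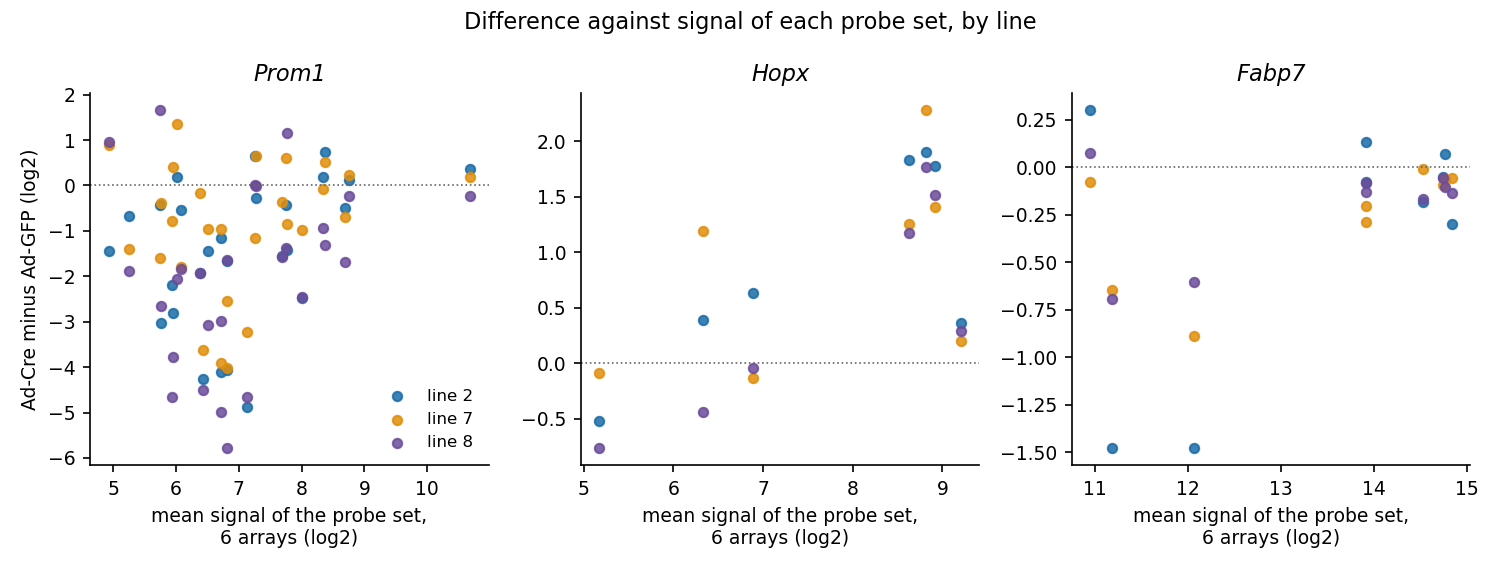
Ad-Cre minus Ad-GFP in log2 units (vertical axis) against the mean log2 signal over 6 arrays (horizontal axis) for each probe set of Prom1, Hopx and Fabp7, with lines 2, 7 and 8 in separate colours. The Fabp7 probe sets with signals of 13.91 or more stay near 0 while those at 11.18 and 12.06 lie below it, and the 4 Prom1 probe sets with the largest mean differences lie at mean signals between 6.42 and 7.12.

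Without line 2, whose Ad-Cre array stood apart, the mean differences of the genes that read lower were -1.26 for Prom1, -1.16 for Ttyh1, -0.55 for Msi1, -0.40 for Ttyh2 and -0.13 for Fabp7, and that of Hopx was 0.74. With the line 8 labels exchanged they shrank to -0.08, -0.47, -0.01, -0.02 and -0.03, and to 0.51 for Hopx. Genes and probe sets given above as lower or higher in all lines then differed in direction between lines. Which marking of line 8 is right was not tested. In these bulk samples fewer cells of a type and less RNA per cell cannot be told apart.

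Levels of the 8 genes in different lines were not used to choose them, so the lines were compared with a test. That test weighs the levels against the spread of the virus differences over lines, so it is not fully separate from the choice. The limma F test over the 3 lines, with the virus as a term, called 0 of the 8 at a Benjamini-Hochberg adjusted p of 0.05, and 0.00864% of all genes (2 of 23152). At an unadjusted p of 0.05 there were 1140 genes (4.92%), among them Ttyh1. Ttyh1 averaged 13.04 in line 2, 12.77 in line 7 and 12.80 in line 8, over 2 arrays each (limma adjusted p = 0.739). Prom1 had the widest range of line averages, with 6.72, 6.78 and 7.27 in lines 2, 7 and 8 (adjusted p = 0.739). Its line 8 average was higher than that of line 2 by 0.55 ± 0.28 (SE of the fit). For Msi1 they were 11.53, 11.42 and 11.19 (adjusted p = 0.739), and for Hopx 8.49, 8.64 and 8.55 (adjusted p = 0.942). Fabp7, Msi2 and Ttyh3 had line averages within 0.12 of each other. With 2 arrays a line this test has little precision, and lines that miss the threshold are not shown to be equal.

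Other genes of the same biology were taken from a list of 36 radial glia and neural stem cell genes. This and the lists below were chosen with earlier results of these data known, so their shares beside all genes are descriptions only. None passed across all genes with limma, 3 were lower and 4 higher at an unadjusted p of 0.05 (8.33% and 11.1% of the list, beside 5.58% and 7.04% of all genes), and the median difference was -0.03. The 4 with the lowest p were all higher. Hes1, a Notch-driven repressor of neuronal differentiation, differed by 0.42 ± 0.10 (SE, n = 3 lines; adjusted p = 0.217) and Emx2, a cortical patterning factor, by 0.80 ± 0.22 (adjusted p = 0.277). Nfia, a gliogenic factor, differed by 0.27 ± 0.08 (adjusted p = 0.294) and Lhx2, a cortical selector gene, by 0.64 ± 0.23 (adjusted p = 0.365). Emx2 read 9.06, 8.65 and 9.68 with Ad-GFP and 9.80, 10.01 and 9.96 with Ad-Cre, so the Ad-Cre arrays were alike while the controls were not. The 3 on the lower side were the receptor phosphatase Ptprz1 (-0.13), the transcription factor Pax6 (-0.28) and the endothelin receptor Ednrb (-0.14). Sox2 differed by -0.04 ± 0.13 (SE) and Nes by 0.08 ± 0.15, with different directions in different lines.

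**Figure D4:**
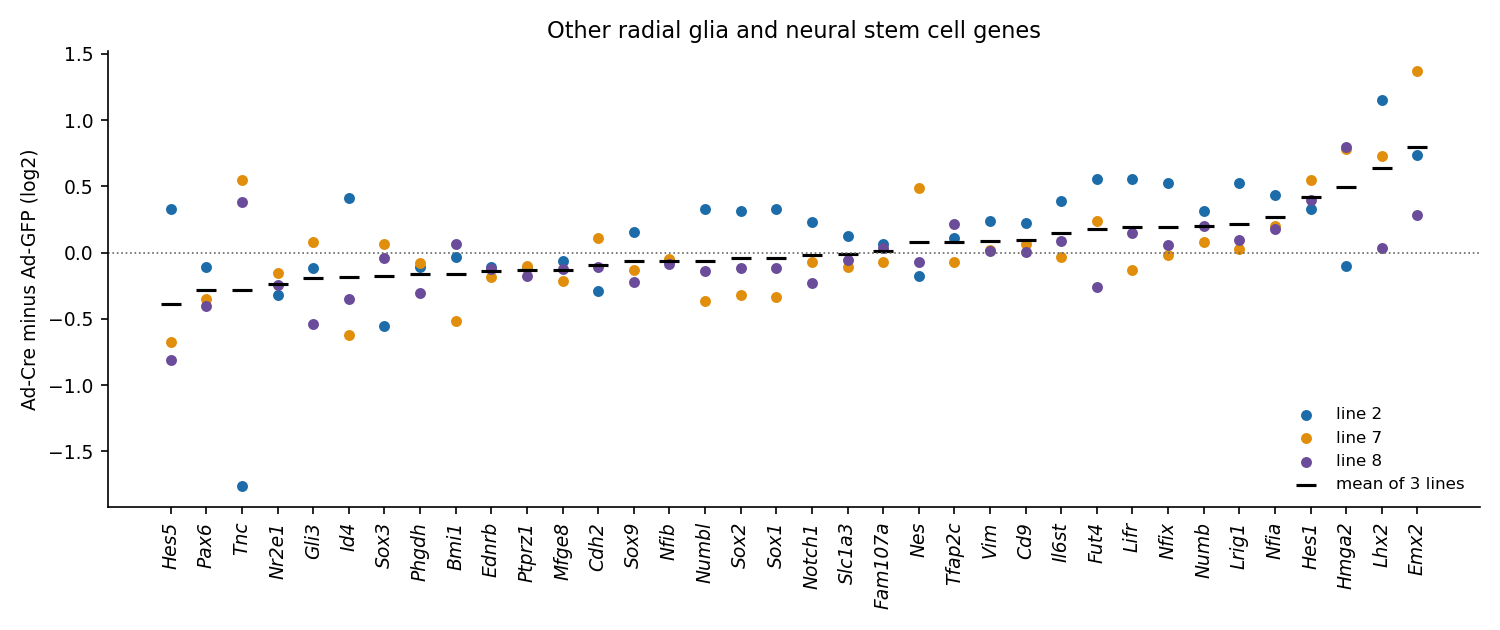
Ad-Cre minus Ad-GFP in log2 units for 36 further radial glia and neural stem cell genes, ordered by the mean over lines (black dash), with lines 2, 7 and 8 as coloured points. Means run from -0.39 to 0.80, Hes5 and Pax6 are at the low end, and Emx2 and Lhx2 are at the high end.

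Among 7 mRNAs known to be bound or regulated by Musashi proteins, 1 was lower and 2 were higher at an unadjusted p of 0.05, and none passed over all genes. These are 14.3% and 28.6% of a short list, beside 5.58% and 7.04% of all genes. Dcx, a microtubule protein of young neurons, read 8.36, 8.79 and 8.32 with Ad-GFP and 6.60, 6.97 and 6.51 with Ad-Cre (difference -1.80 ± 0.09 SE; limma adjusted p = 0.0669). Cdkn1a, the p21 cell cycle inhibitor, was at 12.46, 12.80 and 12.86 with Ad-GFP and 13.49, 13.81 and 13.59 with Ad-Cre (0.92 ± 0.08; adjusted p = 0.0795). Smad3, a transducer of TGF-beta signals, differed by 0.65 ± 0.09 (adjusted p = 0.102) and the TGF-beta receptor Tgfbr1 by -0.24 ± 0.11. Numb, the Notch inhibitor that Musashi-1 represses, differed by 0.20 ± 0.10. Of 10 relatives, partners and regulators of the 8 genes, 0 were past an unadjusted p of 0.05 in limma. The 4 with the lowest p were the fatty acid carrier Fabp5 (-0.34 ± 0.13), the POU factor Pou3f3 (-0.16 ± 0.08), the Notch effector Rbpj (0.17 ± 0.09) and Prom2 (0.14 ± 0.09), the paralogue of Prom1. Over all 52 genes of the 3 lists, 10 were past an unadjusted p of 0.05 (7.69% lower and 11.5% higher), beside 12.6% of all genes. The count was 19 without line 2, 3 without line 7 and 1 with the line 8 labels exchanged. The shares of all genes in those fits are not given here, so these changes are not shown to be particular to the lists.

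Marker lists of other cell types had 0 genes called in limma after adjustment, as had all 23152 genes, and are given as values. At an unadjusted p of 0.05 in limma, 5.58% of all genes were lower and 7.04% higher. These shares were 50% and 16.7% for astrocyte genes, 40% and 20% for neuronal and 33.3% and 0% for oligodendrocyte lineage genes. They were 0% and 33.3% for ependymal genes, 16.7% each for fibroblast and mural, and 0% for microglia and endothelial genes. Each list holds few genes. Over all genes, 16.2% were lower and 22.1% higher in all 3 lines. The mean signal of 6 oligodendrocyte lineage genes was 10.64 to 10.92 on the Ad-GFP arrays and 9.64 to 9.98 on the Ad-Cre arrays. There 3 of the 6 were lower in all lines (Pdgfra by -2.72, Gpr17 by -2.86 and Mbp by -0.09), while Olig1 and Olig2 stayed at 13.09 or more on every array. Cspg4 differed by 0.01, and the median difference of the 6 was -0.13. For 5 neuronal genes the mean signal was 8.91 to 9.25 with Ad-GFP and 7.91 to 8.45 with Ad-Cre. Dcx (-1.80) and Snap25 (-2.45) were lower in all lines, Rbfox3 (0.39) was higher, and Tubb3 and Syt1 had mixed directions. For 6 astrocyte genes the mean signal was 10.23 to 10.56 and 9.36 to 10.70, with 3 lower in all lines (Aldh1l1 by -1.66, Aqp4 by -1.36 and Gja1 by -0.77). Of the other astrocyte genes, S100b differed by 0.61 and Gfap by 1.02, the latter from 3.79 in line 2 against -0.19 and -0.56 in lines 7 and 8. For 6 ependymal genes, a cell type known to express Prom1, it was 7.55 to 7.95 and 7.92 to 8.46, with 3 higher in all lines. The mean signals of the microglia, endothelial and fibroblast and mural lists lay between 6.79 and 7.35, with Aif1, Dcn and Lum under the lower quartile of gene values on every array. Within the fibroblast and mural list Pdgfrb was lower in all lines (-0.61) and Col1a1 higher (0.33). The part of these cell types in the differences above was not tested.

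The genes most like each member over the 6 arrays were found by Pearson's r among named genes with a range of at least 0.5 log2 units, which left about 6306 genes to compare. With 6 arrays high values of r are common among so many genes, and no p is given. Closest to Ttyh1 were Cntn1 (r = 0.996), Accn2 (0.991) and Syt16 (0.990), and closest to Prom1 were Slc39a8 (0.994), Cand2 (0.992) and Mmp14 (0.989). Of these, Cntn1 differed by -1.80, -2.17 and -1.47 in lines 2, 7 and 8, and Mmp14 by -1.63, -0.41 and -2.03. Hopx was most like Fam26d (0.994), Cds1 (0.992) and Lmo4 (0.989). Msi1 was most like Zfp40 (0.999), Parp8 (0.993) and Lphn3 (0.991), and Msi2 most like Fam83h (0.997), Pcdhb16 (0.992) and Zfp647 (0.991). The nearest to Fabp7 were Mfap2 (0.984), Mtap7d3 (0.970) and Trim35 (0.968). Ttyh2 was nearest to Ikzf4 (0.980), Speer4c (0.978) and Fxyd6 (0.976), and Ttyh3 to Slc25a14 (0.987), Arhgap31 (0.981) and Zfp518a (0.977). Within the group itself, Ttyh1 and Hopx had r = -0.912 and Prom1 and Fabp7 r = 0.915 over the same arrays. Msi2, Fabp7 and Ttyh3 had a range under 0.5 and so could not appear as neighbours. None of the other members was among the nearest 3 of another gene of the group.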

How the data were processed

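Total RNA of 6 cultures was read on 1 array each. The authors deposited a log2 signal for every probe set. The submitters' processing notes name RMA and Affymetrix Expression Console, while the version, settings and genome build were not given in the sources used here. Because RMA equalises arrays, a shift common to most genes cannot be seen, and no detection calls were used. Of 269751 probe sets, GEO's platform annotation gives 1 symbol to 233753, several to 5106 and none to 30892. Those with 1 symbol were summarised to 23152 genes by median polish (at most 20 iterations). Groups follow titles and transduction labels.

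Ad-Cre was compared with Ad-GFP in limma 3.58.1 (R 4.3.3, jsonlite 2.0.0), two-sided, with the line as a block, a variance trend and Benjamini-Hochberg adjustment over all genes, and lines by its F test. The scripts were tested on simulated data. The line pairs the arrays by the series design, and deviations of same-numbered arrays from their virus means correlated at 0.226, 0.163 and 0.333. Members and lists were chosen with earlier results of these data known. Named genes were all members, up to 4 per list with the lowest p, 3 per member by pattern, and Nes, Sox2, Gfap and Mki67. Pax6, Ptprz1 and Ednrb, Numb, and the cell type markers given with values were named after their values were seen. Map2 was not matched to a probe set and was not analysed here. Alternatives covered probe set summary, dim probe sets, scaling, the variance trend and each line left out. The block and the line 8 labels were varied for the virus contrast only, and the virus term for the test between lines only.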

Additional observations from a re-analysis of the deposited data

Results flagged for a closer look

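Among the 8 genes, Msi2 and Ttyh3 had opposite directions in different lines, with 1 pair of arrays per line, and the difference between lines was not tested. Msi2 differed by -0.041 with Ad-Cre in line 8 and was higher in lines 2 and 7 (0.10 and 0.04). Ttyh3 was higher by 0.0064 in line 8 and lower in lines 2 and 7 (-0.26 and -0.06). With the line 8 labels exchanged, neither gene had opposite directions. No group had enough arrays for a search for outlying samples.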

How the results depend on the processing

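The number of genes called between the viruses, 0 in limma with the line as a block (the paired fit), was 82 with no replicate block, 241 with the line as a random block and 73 with the mean of probe sets. It lay between 0 and 1211 with 1 line left out, the highest without line 2. Of the 52 listed genes, 10 were past an unadjusted p of 0.05, beside 12.6% of all genes. This count was 1 with the line 8 labels exchanged, and between 3 (without line 7) and 19 (without line 2) with a line left out. The matching shares of all genes are not given here. The count of genes that differed between lines, 2, was 1 with the brightest probe set and between 0 (without line 7) and 37 (without line 2). None of the 8 genes was called between lines in any of the 72 values of the alternatives run for that test, with a lowest limma adjusted p of 0.523. The line 8 labels were not exchanged in the test between lines.

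The direction of the mean difference turned for Prom1 with the brightest probe set (0.11) and for Msi2 with the mean of probe sets (-0.0038). It held in all 11 alternatives for each of the other 6 genes, though Msi1 (-0.01), Ttyh2 (-0.02) and Fabp7 (-0.03) came close to 0 with the line 8 labels exchanged. Over the alternatives Ttyh1 ranged from -1.24 to -0.47 and Hopx from 0.28 to 1.22. Quantile normalization and cyclic loess moved no member's direction, and the median of all genes was then 0.0093 and -0.00065. Dim probe sets hold background, so their differences can be understated. This holds for the 3 of 125 under the lower quartile on every array and for Prom1 probe sets that were under it with Ad-Cre.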
